A study of Mus musculus with 8 samples.

Results

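Markers of the other cells of the vessel wall, 40 genes in all, were followed in cultures of mouse aortic smooth muscle cells: 15 of endothelium, 8 of adventitial fibroblasts, 7 of macrophages, 5 of T cells and 5 of adipocytes. A probe was taken as a member when its gene name in the scanner files was exactly one of these 40 names. This gave 38 of the 27962 gene names on the array, with 63 of 41174 probes. Esam and Lyz have no probe of that exact name. The names are those of the array design, so Emr1 (now Adgre1, encoding F4/80) and Plin (now Plin1, encoding perilipin) appear under their older symbols.

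An artery is built in layers. Endothelial cells line the lumen, smooth muscle cells fill the media, and fibroblasts, resident macrophages and lymphocytes lie in the adventitia, which borders on perivascular fat. Cultures made from the vessel can carry some of these neighbours along, and marker genes are the usual way to look for them. A marker is most useful when the cells of interest do not transcribe it, which has to be seen gene by gene.

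The cells were primary vascular smooth muscle cells (VSMC) from aortas of C57BL/6 mice, grown in serum-containing medium. Total RNA was hybridised to 8 arrays of 1 colour. The AngII group held 4 cultures with 1 µM angiotensin II, the peptide hormone that constricts arteries. The AngII+CsA group held 4 cultures with 1 µM angiotensin II and 200 ng/ml cyclosporin A, which blocks the phosphatase calcineurin. All 8 cultures thus had angiotensin, and cells without it were not analysed here. The labels give neither the age of the animals nor a sort or selection of the cells. In such bulk RNA, fewer cells of a type and less RNA per cell cannot be told apart.

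Between 42.8% and 51.7% of the 43379 spots of an array were well above background, and none was saturated. Cultures carry the numbers 1 to 4 in each group, and the 2 arrays of a number share a slide and a scan. Of 12 smooth muscle genes, 9 were above background on all 8 arrays. The level of a probe is its log2 signal minus the 75th percentile of its array, so 0 is that percentile itself. For Tagln, the actin-binding protein SM22, the levels were 7.40, 8.62, 9.23 and 9.57 in AngII cultures 1 to 4 and 7.22, 8.91, 9.29 and 9.32 in AngII+CsA cultures 1 to 4. At one of its probes Acta2, smooth muscle actin, had 5.66, 7.01, 8.79 and 8.54 with AngII and 5.51, 7.36, 8.73 and 8.44 with AngII+CsA. Number 1 was lowest for Tagln and for this Acta2 probe in both groups. It was also the lowest for 11 of the 16 smooth muscle probes kept for testing, so results are given without the arrays of number 1 where they matter. An Acta2 probe that was not kept went the other way. It was above background only on the 2 arrays of number 1, at -2.61 with AngII and -2.44 with AngII+CsA. Desmin (Des), of the muscle intermediate filaments, was above background on 5 arrays and on neither array of number 1, and Myocd, the coactivator of the muscle programme, on 1 array. Rcan1, the calcineurin target that reports on the drug, fell by 2.26 with AngII+CsA at one probe (limma with the replicate number as a block, adjusted p = 0.0215), lower in 4 of 4 pairs. Its second probe differed by -1.50 (adjusted p = 0.250 in that fit), also lower in 4 of 4 pairs. On the groups alone the adjusted p by limma was 1.00 for both probes, and with the block 0 of all probes passed on leaving out any one number.

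Most probes of the non-muscle markers gave little or no signal. A probe counts as above background on an array when the software marks at least a share of 0.5 of its spots so, and it was kept for testing when that held on 4 or more of the 8 arrays. Of the 63 member probes 22 were kept (34.9%), for 21 genes, beside 47.4% of all probes. On all 8 arrays 15 member probes were above background, against 38.9% of all probes. On 0 arrays there were 29, against 41.5% of all probes, and the other 12 not kept were above background on 1 to 3 arrays. By array, the number of member probes above background was 25, 23, 17 and 23 in AngII cultures 1 to 4 and 21, 24, 18 and 22 in AngII+CsA cultures 1 to 4. Number 3 had the fewest in both groups. The share of all probes above background was also lowest there, at 42.2% and 43.1%.

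In each class the share of probes kept was below the 47.4% of all probes. The classes are small and differences between them were not tested. Endothelium had 9 of 25 (36%), adventitial fibroblasts 4 of 9 (44.4%), macrophages 4 of 13 (30.8%), T cells 3 of 9 (33.3%) and adipocytes 2 of 7 (28.6%). Of the smooth muscle markers, by contrast, 16 of 22 probes were kept. For 8 of the 38 genes no probe was above background on any array. These were Pecam1, Cdh5 and Tie1 of the endothelium, Cd34, Emr1 and Itgam, Cd8a, and the adipocyte protease gene Cfd.

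**Figure D1:**
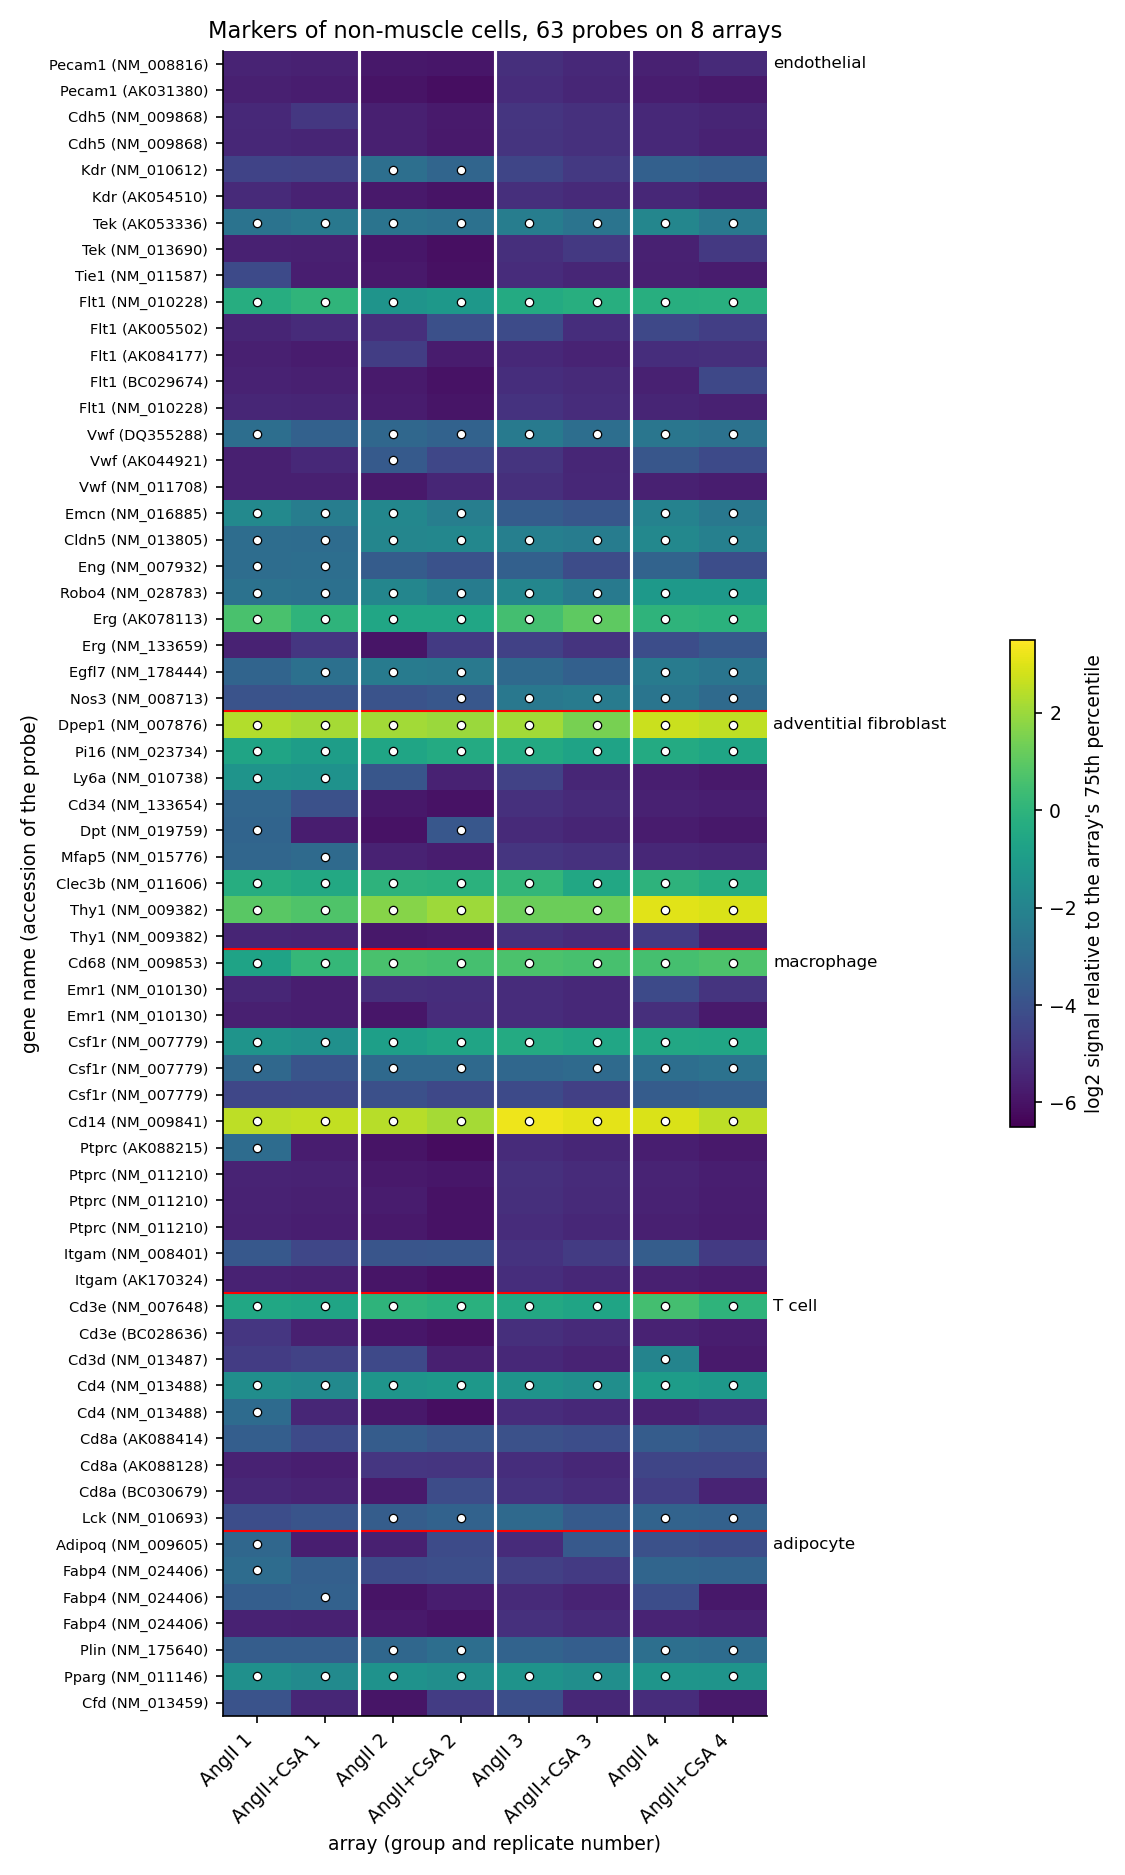
Levels of the 63 member probes (rows, grouped by cell type) on the 8 arrays (columns, ordered by replicate number). Colour gives log2 signal relative to the 75th percentile of the array and is to be compared along a row only; a dot marks a probe above background. Of the probes, 15 have a dot in every column and 29 have none.

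Whether a gene counted as present often depended on the probe. Several probes exist for 16 member genes, and in 8 of them at least 1 was kept. In 7 of these 8 genes another probe was above background on 0 arrays. This split is common on the array, seen in 50.4% of the 6830 gene names that have several probes with one of them kept. The pairs below show where on the chromosome such probes lie and what they are made of. Each sequence is the first 30 of the probe's 60 bases, 5′ to 3′, in lower case throughout since no motif is marked, with the files' coordinates in mouse build mm7. No mm7 annotation was used here, so exon, intron or UTR positions are not given.
Erg, above background on 8 arrays, chr16:95666556-95666615, minus strand: gaggactgggagcagtagtattcagaacca
Erg, on 0 arrays, chr16:95667269-95667328, minus strand: cacaccatgtatgatgtcatttgaagggaa
Flt1, on 8 arrays, chr5:146456619-146456678, minus strand: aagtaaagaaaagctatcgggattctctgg
Flt1, on 0 arrays, chr5:146456692-146456751, minus strand: cctgtattattccgattttaataatctaat
Thy1, on 8 arrays, chr9:43982862-43982921, plus strand: cactgctacagcatctcaccgaggaaagaa
Thy1, on 0 arrays, chr9:43981253-43981698, plus strand: gcgcgaatcccatgagctccaataaaagta
Tek, on 8 arrays, chr4:94134402-94134461, plus strand: agttctcatagaacttagcagtgttacccc
Tek, on 0 arrays, chr4:94266776-94266835, plus strand: ctctaatgtgactgtatatactgctcggag

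The 2 Flt1 probes start 73 bases apart, and the one with signal lies downstream. Their GC content is 40% for the probe with signal and 26.7% for the other, whose levels ran from -5.92 to -5.03. The other 3 Flt1 probes, up to 92185 bases upstream, were also above background on 0 arrays. For Thy1, the probe with signal lies 1609 bases downstream of the silent one, and GC content is 46.7% and 45%. The silent Thy1 probe had levels of -5.85 to -4.81. For Erg, the distance is 713 bases with the probe with signal downstream. The Tek probe with signal instead lies 132374 bases upstream of the silent probe. It carries the accession of a full-length cDNA (AK053336), while the silent one carries the RefSeq transcript. For Cd3e the silent probe is 4730 bases upstream. The part of probe design in these splits was not tested, and levels of different probes are not ranked against each other.

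**Figure D2:**
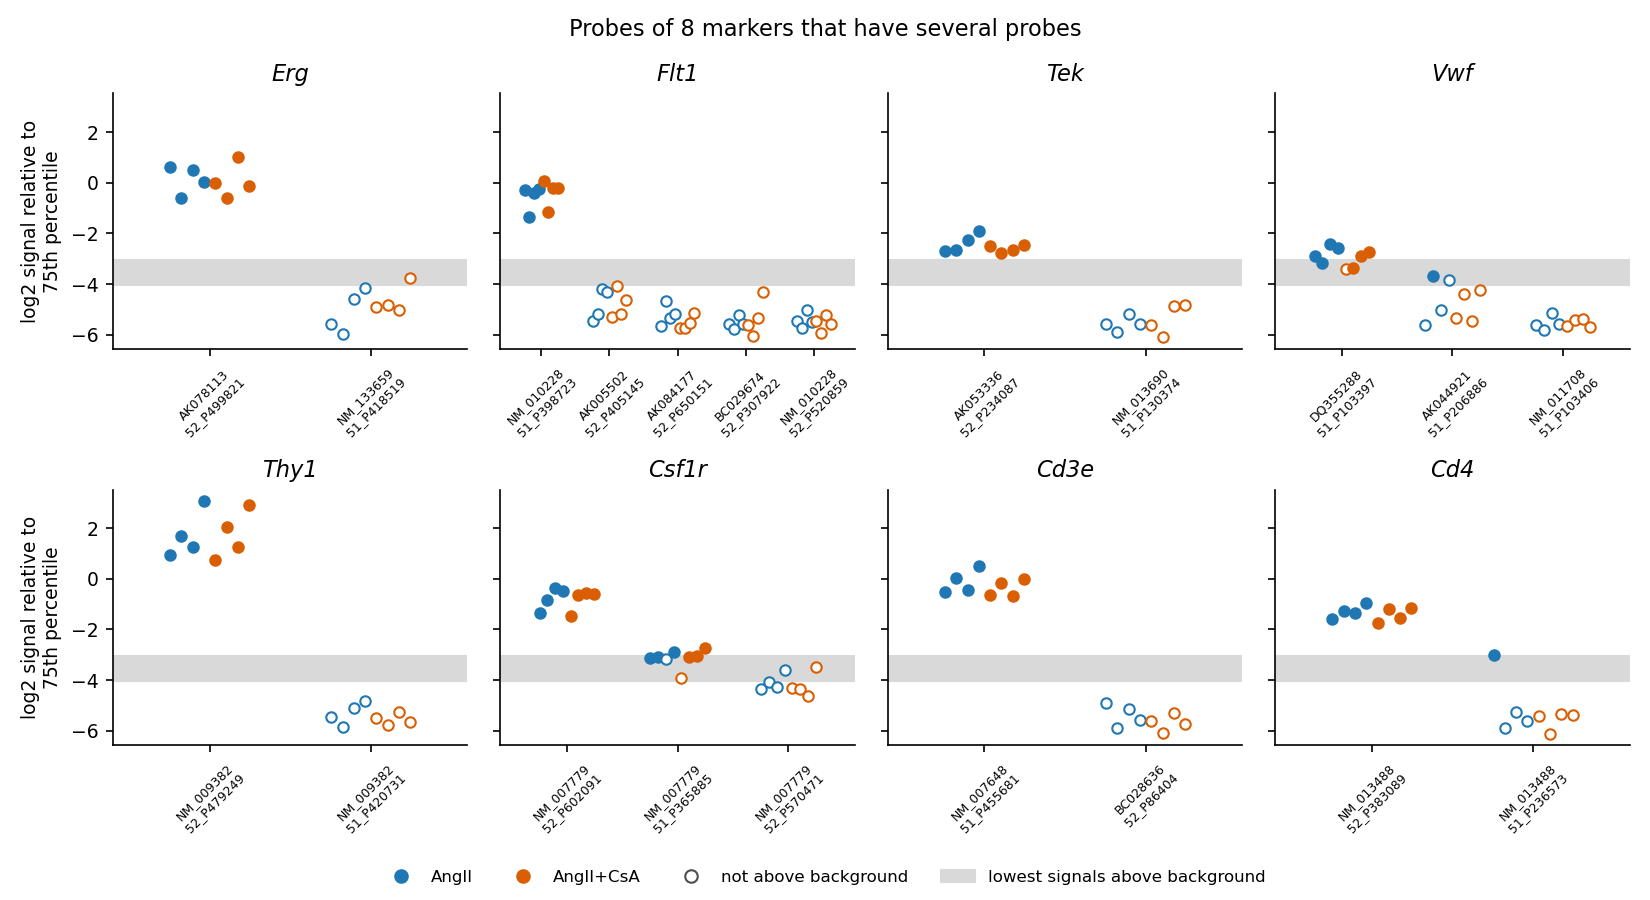
Levels of every probe of 8 marker genes, 1 point per array in log2 relative to the 75th percentile; filled points are above background, open points are not, and the grey band spans the lowest signals above background on the 8 arrays. Erg, Flt1, Tek, Vwf, Thy1, Csf1r and Cd3e each have a probe above background on at least 7 arrays and another on 0.

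Endothelial genes without signal were Pecam1, Cdh5 and Tie1. Both probes of Pecam1 (CD31) stayed between -6.15 and -5.16, and both probes of Cdh5 (VE-cadherin) were above background on 0 arrays, with a maximum of -4.86. Tie1, an orphan receptor of the angiopoietin system, reached at most -4.26. The lowest signal above background was between -4.03 and -3.03, depending on the array. Kdr, the main signalling receptor for VEGF, was above background on both arrays of number 2, at -2.86 with AngII and -3.25 with AngII+CsA, and on no other. There it was at least 1.20-fold higher than on the other arrays, and 0.95% of all probes had the same pattern of detection.

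The receptors Flt1 and Tek did have signal throughout. The Flt1 probe shown above, for a VEGF receptor that also binds placental growth factor, had levels of -0.27, -1.34, -0.40 and -0.24 in AngII cultures 1 to 4 and 0.05, -1.15, -0.21 and -0.20 in AngII+CsA cultures 1 to 4. Number 2 was the lowest pair in both groups, apart from the other 6 arrays. For Tek, the angiopoietin receptor Tie2, the levels were -2.70, -2.64, -2.25 and -1.91 with AngII and -2.48, -2.77, -2.64 and -2.45 with AngII+CsA. The 2 groups overlapped and no number stood out.

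Robo4, the roundabout receptor of endothelium, had levels of -2.72, -1.92, -1.91 and -1.11 with AngII and -2.82, -2.31, -2.42 and -1.10 with AngII+CsA. Both arrays of number 4 were above, and both of number 1 below, all others. The co-receptor endoglin (Eng) was above background only on the arrays of number 1, at -2.92 and -2.89. There it was at least 1.45-fold higher than on the other arrays, with an adjusted p of 0.0743 for replicate number by limma over all probes. Exactly these 2 arrays were above background for 1.01% of all probes.

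Emcn, the sialomucin endomucin of venous and capillary endothelium, was low in a single number. Its levels were -1.81, -1.86, -3.61 and -2.08 with AngII and -2.24, -2.24, -3.82 and -2.49 with AngII+CsA. Neither array of number 3 was above background and the other 6 were. The remaining arrays averaged at least 1.98-fold more than those of number 3, taking the lowest measurable signal as a bound. Of all probes 0.962% had the same pattern of detection. Cldn5, a claudin of tight junctions, had levels of -2.93, -1.91, -2.17 and -1.81 with AngII and -2.95, -1.89, -2.31 and -2.15 with AngII+CsA, lowest on both arrays of number 1.

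The clotting factor gene Vwf had 1 of 3 probes kept, with levels of -2.90, -3.16, -2.42 and -2.59 with AngII and -3.39, -3.36, -2.87 and -2.73 with AngII+CsA. All but AngII+CsA 1 were above background, and the groups overlapped. Nos3, the endothelial nitric oxide synthase, was measured by a probe with 10 spots per array. Its levels were -3.96, -3.95, -2.49 and -2.60 with AngII and -3.90, -3.80, -2.33 and -3.06 with AngII+CsA. Numbers 3 and 4 were higher than 1 and 2 in both groups, and neither array of number 1, nor AngII 2, was above background. The median SD among its spots on an array was 0.278, which covers spot noise only.

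The ETS transcription factor gene Erg had levels of 0.63, -0.59, 0.51 and 0.01 with AngII and 0.01, -0.60, 1.00 and -0.13 with AngII+CsA, lowest on both arrays of number 2. Egfl7, for a secreted protein of growing vessels, was above background on 5 arrays, with levels of -3.29, -2.36, -3.08 and -2.34 with AngII and -2.80, -2.44, -3.42 and -2.60 with AngII+CsA. Numbers 2 and 4 were above numbers 1 and 3. A probe named Esam1, which the exact-name rule leaves out although its accession is that of Esam, was above background on 6 arrays, all but those of number 3, at -3.09 to -2.39.

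Of the further endothelial genes, which were not among the 40, 10 had a probe, and 5 of their 17 probes were kept. Gpihbp1, which anchors lipoprotein lipase on capillaries, was above background on all 8 arrays, at 0.99 to 1.62. Plvap, of the diaphragms of fenestrae, was so at -0.32 to 0.47, and the transcription factor gene Sox17 at -3.11 to -1.16 at 1 of its 4 probes, the other 3 being above background on 0 arrays. The rest of that list had less signal. Mmrn2 was above background on 5 arrays, Prox1 on 4 at one probe, Icam2 on 2 and Cd93 on 1 at one probe. Sox7, Sox18 and Flt4 were above background on 0 arrays.

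Adventitial fibroblast markers divided into genes seen everywhere and genes seen almost nowhere. Dpep1, a membrane dipeptidase, had levels of 2.35, 2.13, 2.10 and 2.69 with AngII and 2.16, 2.0, 1.44 and 2.56 with AngII+CsA. Pi16, a peptidase inhibitor of the adventitia, had -0.66, -0.60, -0.41 and -0.40 with AngII and -0.92, -0.38, -0.70 and -0.62 with AngII+CsA. For both genes the groups overlapped. Clec3b, which encodes the plasminogen-binding protein tetranectin, had -0.26, -0.05, 0.11 and -0.04 with AngII and -0.45, -0.10, -0.52 and -0.30 with AngII+CsA. Its AngII+CsA array was the lower one in every pair, with overlap between the groups through number 2 of AngII+CsA.

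Thy1, the surface glycoprotein CD90, varied widely between numbers. Its levels were 0.96, 1.70, 1.24 and 3.06 with AngII and 0.76, 2.04, 1.24 and 2.92 with AngII+CsA. Number 4 was above, and number 1 below, all other arrays in both groups, a 4.40-fold range between number means. The second Thy1 probe was silent, so this pattern rests on the probe shown above.

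Ly6a, which encodes the progenitor antigen Sca-1, was a marker of number 1 alone. It was above background on both arrays of number 1, at -1.33 with AngII and -1.42 with AngII+CsA, and on none of the other 6. The arrays of number 1 averaged at least 4.39-fold more than the others. The background for this pattern of detection is the 1.01% given for Eng. By limma with no filter on dim probes, the adjusted p for replicate number was 0.0188. In that fit 53.5% of all probes passed, and so did a Pecam1 probe above background on 0 arrays (adjusted p = 0.0198). Since values below the measurable range can pass this test, it does not decide on Ly6a. Other adventitial genes were near the limit: Mfap5, of elastic microfibrils, was above background on 1 array, AngII+CsA 1, Dpt (dermatopontin) on 2, and Cd34 on none.

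Of 15 probes for 8 general fibroblast genes that were not among the 40, 13 were kept, and 7 of the 8 genes were above background on all 8 arrays. The collagen gene Col1a1 ran from 9.86 to 10.71 at one of its probes, and the proteoglycan gene Dcn (decorin) from 8.02 to 10.05. The protease-inhibitor family member Serpinf1 ran from 7.35 to 9.04. Decorin was highest in number 1, with 10.05 and 10.02, and Col1a1 was highest in number 3. Number 1 was the highest for 5 and the lowest for 3 of the 13 probes. These genes are also transcribed by smooth muscle cells in culture, and bulk RNA does not assign their signal to a cell type.

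Macrophage markers gave signal for 3 genes, Cd68, Cd14 and Csf1r, and little or none for Emr1, Itgam and Ptprc. Cd68, of lysosomal membranes, had levels of -0.69, 0.63, 0.68 and 0.55 with AngII and 0.16, 0.54, 0.60 and 0.71 with AngII+CsA. The arrays of number 1 were the 2 lowest. Cd14, the co-receptor for bacterial lipopolysaccharide, had 2.51, 2.42, 3.24 and 2.95 with AngII and 2.59, 2.16, 3.11 and 2.51 with AngII+CsA. Number 3 was highest and number 2 lowest in both groups.

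Csf1r, the receptor for macrophage colony-stimulating factor, had 3 probes. The first had levels of -1.34, -0.85, -0.38 and -0.50 with AngII and -1.47, -0.66, -0.58 and -0.58 with AngII+CsA, with number 1 lowest in both groups. A second was above background on 6 arrays, with -3.12, -3.07, -3.15 and -2.89 with AngII and -3.90, -3.09, -3.05 and -2.72 with AngII+CsA. The third was above background on 0 arrays. Both probes of Emr1 (F4/80) and both of Itgam (CD11b) were silent. Ptprc, the leukocyte common antigen CD45, had 4 probes, and the one detection among their 32 measurements was AngII 1 at -2.96.

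Further macrophage genes had 2 of 15 probes kept. Fcer1g, an Fc receptor chain, ran from 0.74 to 1.76 at one probe, with the other above background on 0 arrays. C1qb, a complement subunit, ran from -0.16 to 0.75, while C1qa and C1qc were above background on 0 arrays. A lysozyme probe named Lyzs, outside the exact-name rule, was above background only on the 2 arrays of number 1, at -1.12 and -1.23. It was at least 5.06-fold over the rest, and 1.01% of all probes had the same pattern of detection. A second Lyzs probe did not share it, being above background only on AngII+CsA 3, at -3.13.

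T cell markers had signal in 3 of 5 genes. For Cd3e, a chain of the T cell receptor complex, the levels were -0.52, 0.02, -0.46 and 0.50 with AngII and -0.64, -0.16, -0.66 and 0.01 with AngII+CsA. The AngII+CsA array was lower in every pair, while the groups overlapped. The co-receptor gene Cd4, with 10 spots per array and a median SD of 0.161 among them, had -1.58, -1.28, -1.37 and -0.96 with AngII and -1.75, -1.18, -1.55 and -1.15 with AngII+CsA. A second Cd4 probe was above background on 1 array. Lck, the kinase bound to that co-receptor, was near the limit, at -4.12, -3.54, -3.07 and -3.31 with AngII and -3.89, -3.34, -3.68 and -3.38 with AngII+CsA. It was above background on the arrays of numbers 2 and 4. Cd3d, another chain of the complex, was above background on 1 array, AngII 4, at -1.97, and the 3 probes of Cd8a on none. Among further lymphocyte genes 5 of 10 probes were kept, including the surface receptor gene Cd5, at -1.61 to -0.02.

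Of the adipocyte markers 2 of 7 probes were kept (28.6%, beside 47.4% of all probes), too few to rank the class against the others. Pparg, the nuclear receptor that drives fat cell formation, was measured with 10 spots per array. Its levels were -1.48, -1.39, -1.35 and -1.28 with AngII and -1.71, -1.57, -1.57 and -1.32 with AngII+CsA, the AngII+CsA array being lower in each pair. Plin, the coat protein of lipid droplets, had -3.54, -3.15, -3.33 and -2.85 with AngII and -3.55, -2.87, -3.53 and -2.96 with AngII+CsA, above background in numbers 2 and 4. Adipoq, the hormone adiponectin, was above background on 1 array, AngII 1. The fatty acid carrier Fabp4 was so on AngII 1 with one probe and AngII+CsA 1 with another. The further adipocyte genes, which were not members, went the other way. Of their 11 probes 6 were kept (54.5%, beside 47.4% of all probes). Both Cebpa probes were above background on all 8 arrays, at -1.69 to 0.07, as were Cidec and 1 of the Lipe probes.

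More markers differed by replicate number than by treatment. In a limma fit with group and number as terms, the moderated F-test for number passed an adjusted p of 0.05 for 16 of the 22 kept member probes (72.7%), beside 66.9% of all kept probes. The members' share was near this background. By class it passed for 8 of 9 endothelial, 2 of 4 fibroblast, 3 of 4 macrophage, 2 of 3 T cell and 1 of 2 adipocyte probes. The probes that did not pass were Tek, Pi16, Clec3b, the second Csf1r probe, Lck and Pparg. Without the arrays of number 1 the count was 11 (50%, beside 61.5% of all kept probes). Without those of number 2 it was 9 (40.9%, beside 52.0%), without those of number 3 it was 12 (54.5%, beside 52.3%), and without those of number 4 it was 8 (36.4%, beside 42.4%). With normexp background correction it was 9 (40.9%, beside 56.1%).

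The sizes can be read from Emcn, Robo4, Nos3 and Thy1. From the lowest to the highest number mean, Robo4 spanned 3.18-fold (adjusted p = 0.00401), Thy1 4.40-fold (adjusted p = 0.00206), and, against the background limit of their lowest number, Emcn at least 2.11-fold (adjusted p = 0.00186) and Nos3 at least 1.94-fold (adjusted p = 0.00396), all by limma's moderated F-test with Benjamini-Hochberg adjustment over all kept probes. For Emcn both arrays of number 3, and for Nos3 both arrays of number 1 and AngII 2, were not above background. Their p-values thus rest in part on values below the measurable range, and as for Ly6a the test does not decide on them. Emcn passed in 8 of the 9 settings that used all 8 arrays and kept it, with a largest adjusted p of 0.534 by the same test. The median range over numbers was 0.85 log2 for the kept members and 0.93 for all kept probes. The order of the numbers differed from gene to gene: Emcn was lowest in number 3, Flt1 and Erg in number 2, Robo4, Thy1 and Cldn5 in number 1. Number 1 was the lowest for 14 of the 22 probes (63.6%), beside 35.8% of all kept probes, and number 4 the highest for 10 (45.5%, beside 22.4%). This difference from the background was not tested. Of the 22 members 17 had a mean level below 0. For all kept probes with such a mean, the median level in numbers 1 to 4 was -1.94, -1.74, -1.96 and -1.78 with AngII. With AngII+CsA it was -1.99, -1.80, -2.03 and -1.82. Dim probes were thus lower in numbers 1 and 3 than in 2 and 4. Number, slide and scan are the same split of these arrays and cannot be told apart.

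**Figure D3:**
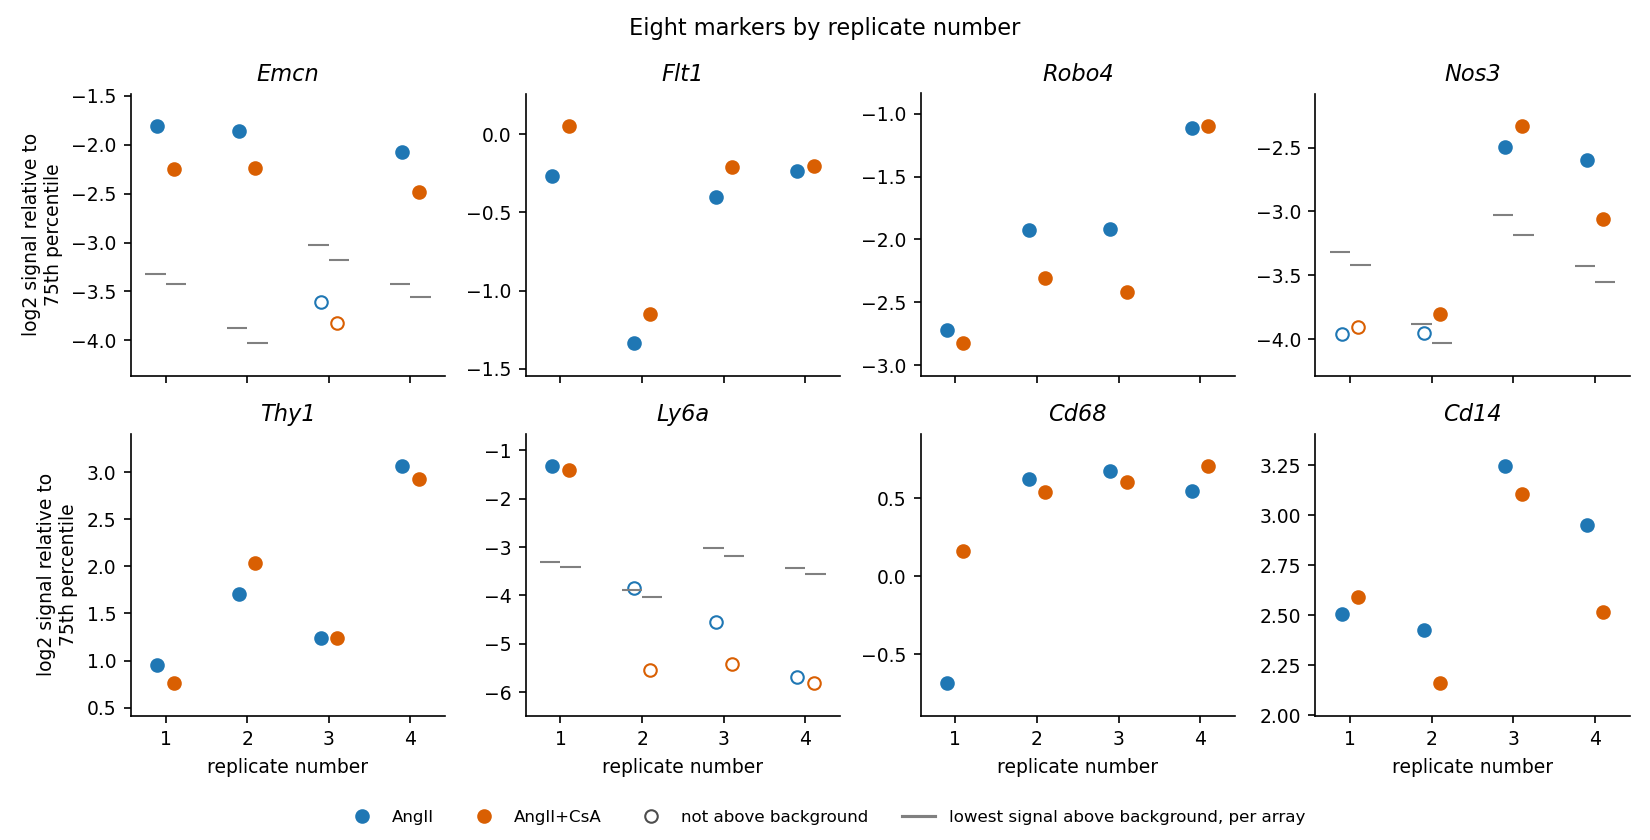
Levels of 8 members by replicate number, in log2 relative to the 75th percentile; blue points are AngII, orange points AngII+CsA, open points not above background, and grey lines mark the lowest signal above background on each array where it is close. For Thy1 the 2 arrays lie at 0.76 to 0.96 in number 1 and at 2.92 to 3.06 in number 4, while for Cd68 the arrays of number 1 lie apart, at -0.69 and 0.16.

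The signal of a whole class can be summed over its probes, in units of the 75th percentile of the array. For endothelium the sum was 2.96 to 4.25 with AngII and 2.80 to 4.37 with AngII+CsA. Adventitial fibroblast probes summed to 8.63 to 16.7 and 6.52 to 15.05, macrophage probes to 7.19 to 12.2 and 6.92 to 11.2. For T cell probes the range was 1.41 to 2.49 and 1.19 to 1.75, and for adipocyte probes 0.618 to 0.857 and 0.608 to 0.739. In each class the ranges of the groups overlapped. Single probes carry much of these sums: Cd14 made up 64.5% to 79.0% of the macrophage sum, Dpep1 38.8% to 55.8% of the fibroblast sum and Erg 22.4% to 45.8% of the endothelial sum. The highest fibroblast sums, 16.7 and 15.05, were those of number 4, where Thy1 was highest. Smooth muscle probes summed to 1598 to 4176 with AngII and 1573 to 3808 with AngII+CsA, and in both groups number 1 was the lowest. The general fibroblast genes outside the members reached a similar size, at 2261 to 3526 and 2317 to 3217. Pericyte genes, also outside the members, summed to 114 to 265 and 89.1 to 212. The further endothelial, macrophage, lymphocyte and adipocyte genes stayed low, at no more than 5.17 on any array. The size of a sum thus depends on which genes are listed.

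No marker passed the threshold for cyclosporin. With limma on the groups alone, 0 of the 22 kept member probes passed, as did 0 of all 19529 probes (0%). At an unadjusted p under 0.05 there were 0 members and 58 probes in all (0.297%). This fit leaves the spread between numbers in its residual, with a median residual SD of 0.45 over all kept probes, against 0.19 with the block. Its counts of 0 therefore say little about an absence of change. With replicate number as a block, 0 members passed, beside 2 of all probes (0.0102%). At an unadjusted p under 0.05 there were then 2 members, beside 4.99% of all probes.

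Those 2 members were endothelial and both lay lower with AngII+CsA. For Emcn the 2 arrays of number 3, and for Vwf AngII+CsA 1, were not above background, so the means and the differences of these pairs include values below the measurable range. Emcn differed by -0.36 (mean -2.34 ± 0.85 with AngII, -2.70 ± 0.76 with AngII+CsA, SD, n = 4 each). Within pairs the differences were -0.44, -0.38, -0.22 and -0.41, with a 95% interval of -0.61 to -0.11 in the blocked fit of limma and an adjusted p of 0.932. Vwf differed by -0.32 (mean -2.77 ± 0.33 with AngII, -3.09 ± 0.34 with AngII+CsA, SD, n = 4 each), with a 95% interval of -0.60 to -0.04 and an adjusted p of 0.932 in the same fit. Its pairs gave -0.49, -0.20, -0.45 and -0.14. Neither difference passed after adjustment over all probes.

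Flt1 was the one kept member with a higher value in 4 of 4 pairs, by 0.32, 0.19, 0.19 and 0.04, with a mean difference of 0.18 and a 95% interval of -0.07 to 0.44. Of all probes 5.2% were higher in 4 of 4 pairs. Lower in 4 of 4 pairs were 6 members, beside 9.09% of all probes: Vwf, Emcn, Dpep1, Clec3b, Cd3e and Pparg. Dpep1 differed by -0.27 (95% interval -0.59 to 0.04), Clec3b by -0.28 (-0.59 to 0.03), Cd3e by -0.25 (-0.52 to 0.03) and Pparg by -0.17 (-0.42 to 0.08). Thy1, with its wide range over numbers, differed by 0.00 (-0.31 to 0.31). In none of the 22 did the groups separate without overlap, beside 0.4% of all probes.

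In direction, 19 of the 22 kept members had a negative difference, beside 53.7% of all kept probes and 58.9% of those with a mean level below 0. Of the 22 members 17 had such a mean level, and 16 of these 17 were negative. The median difference was -0.13 for the members, -0.05 for all kept probes with a mean level below 0 and -0.01 for all kept probes. By class the medians were -0.12 in endothelium, with 8 of 9 probes negative, -0.21 in adventitial fibroblasts (3 of 4), -0.10 in macrophages (3 of 4), -0.11 in T cells (3 of 3) and -0.09 in adipocytes (2 of 2). Within pairs 1 to 4 the median over the 22 probes was -0.13, -0.04, -0.20 and -0.14. Scaling moved the count: 16 of 22 were negative after quantile normalization, with a median of -0.06, and 16 in the authors' values, with -0.07. Leaving out AngII 4 made it 11 of 22, with a median of -0.02, and leaving out AngII+CsA 1 made it 12, with -0.04. Leaving out AngII 1 made it 20, with a median of -0.25, and leaving out AngII+CsA 4 made it 20, with -0.19. Without both arrays of number 1, in the fit with the block, it was 18, with -0.15.

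**Figure D4:**
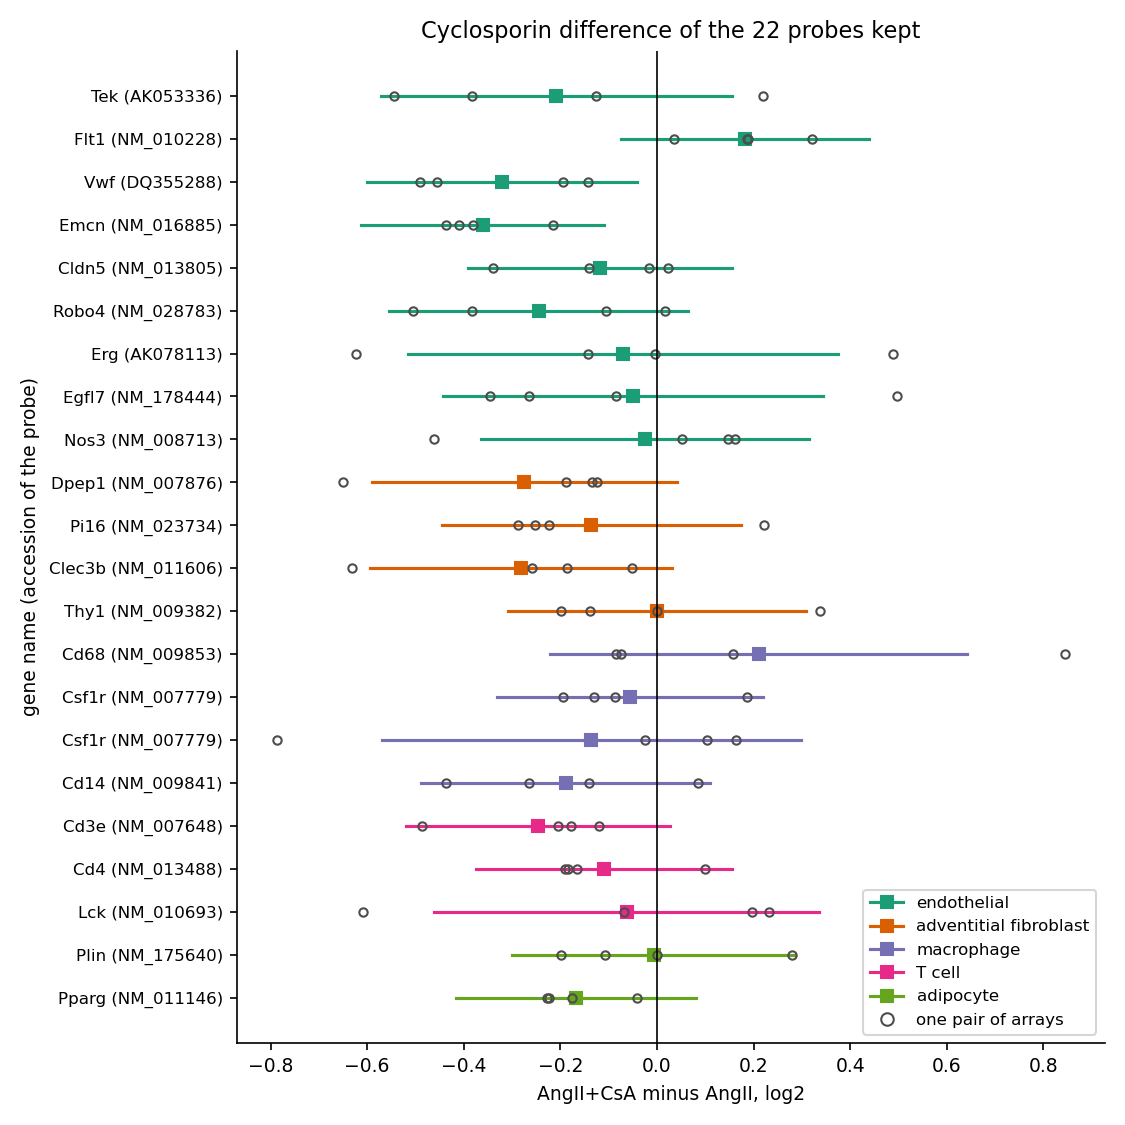
AngII+CsA minus AngII for the 22 kept member probes in log2; squares are mean differences, lines their 95% intervals in the fit with replicate number as a block, circles the differences within each of the 4 pairs, and colours the cell types. The lines of Vwf and Emcn lie wholly below 0 and the other 20 cross it; after adjustment over all probes none passes.

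Among the genes of the same classes outside the 40, and the smooth muscle markers, 0 probes passed either fit for cyclosporin. For the further genes the median differences were -0.19 for endothelium over 5 kept probes, -0.01 for fibroblasts over 13, -0.18 for macrophages over 2, -0.22 for lymphocytes over 5 and 0.11 for adipocytes over 6. The smooth muscle median was 0.06 over 16, with Cnn1, the actin-binding protein calponin, at -1.71 as the most negative.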

How the data were processed

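The intensity of each spot is in the files deposited by the authors, one per array. Per the file headers, these come from Agilent Feature Extraction 9.5.3.1 and hold a processed signal, mean and background signals, and marks of spot quality and of detection. A second, deposited table gives log2 values for these arrays by an unknown method and scale constant (column median 3.01); it served as an alternative.

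Levels are log2 of the processed signal minus each array's 75th percentile. Control and outlier spots (77 to 127 per array) were left out and spots of a probe averaged; 19529 of 41174 probes were above background on at least 4 arrays. The tests used limma 3.58.1 (R 4.3.3) and were two-sided, adjusted by Benjamini-Hochberg over all kept probes. The groups alone were the main fit (6 residual degrees of freedom); replicate number as a block left 3. Numbers come from the labels: deviations from group means correlated at 0.70 to 0.86 within a number and at -0.76 to 0.25 otherwise, so the numbers pair the arrays. For a fold bound, values of arrays below background were raised to that array's lowest signal above background where they were under it.

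Members and lists were chosen with earlier results of these data known. All members with a kept probe were named with every value, others by counts and ranges, plus muscle markers, Rcan1 and some genes of the further lists. Lists of pericyte, Schwann cell, mesothelial, mast cell and red cell genes had 3 of 11, 5 of 9, 2 of 4, 3 of 6 and 5 of 7 probes kept. The fits were tested on simulated data. Alternatives covered background correction, scaling, filters, outlier spots, choice of probe, the variance model, the block and leaving out arrays.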

Additional observations from a re-analysis of the deposited data

Results flagged for a closer look

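In 5 of 44 sets of 4 arrays (22 kept member probes in 2 groups), 1 array lay far from the other 3 by Dixon's criterion; chance marks about 1 in 20 sets. Emcn was low in number 3 of both groups, at -3.61 with AngII (others -2.08 to -1.81) and at -3.82 with AngII+CsA (others -2.49 to -2.24). Flt1 in AngII 2 was -1.34, with the others at -0.40 to -0.24. Cd68 in AngII 1 was -0.69, with the others at 0.55 to 0.68. For Csf1r, AngII+CsA 1 was -1.47 at the probe above background on all 8 arrays, with the others at -0.66 to -0.58. Each array named belongs to the number that was lowest for that probe in the other group as well.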

How the results depend on the processing

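For cyclosporin, 0 member probes passed under every setting run, although with adjusted p-values near 1.00 on the groups alone this says nothing about stability. Over all probes, 2 passed with the replicate block and 8 with number as a random block, against 0 otherwise. For replicate number, members passing fell from 16 to 9 with normexp background correction and to 8 to 12 on leaving out a number. With no filter on dim probes 30 of 63 passed (47.6%, beside 53.5% of all probes). In the main fit the shares were 72.7% and 66.9%. The 63 include 29 probes above background on 0 arrays. Over all probes the count was 22022 with no filter and 8276 to 12014 on leaving out a number. Flt1, Robo4, Nos3, Thy1, Dpep1, Cd3e and the first Csf1r probe passed in every setting that used all 8 arrays and kept the probe. Leaving out arrays moved the class medians of the cyclosporin difference to -0.26 to 0.013 (endothelium), -0.20 to 0.13 (macrophages, -0.016 with the block and without number 1) and -0.27 to 0.0049 (T cells). The macrophage median was -0.027 after quantile normalization and -0.027 in the authors' values. With normexp the median level was -0.96 for endothelium, -0.65 for T cells and -0.90 for adipocytes. Counting probes above background on at least 1 array gave 34 of 63. The scaling to the 75th percentile of detected probes was chosen after seeing the data. The cause of these changes was not tested. Most members lie near background, so signal limits their precision, as does the number of arrays.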

Other observations

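Genes that mark pericytes, mesothelium, nerve sheath, blood or mast cells, outside the 40, gave these values. Pdgfrb, the platelet-derived growth factor receptor used as a pericyte marker, was above background on all 8 arrays at 6.46 to 8.04. Cspg4, also on the pericyte list, was so at one probe, at -1.28 to 0.29, with its others above background on 2 and 1 arrays. Rgs5, another pericyte gene, was above background on 5 arrays at one probe, at a maximum of -2.53, and Kcnj8 and Abcc9 on 0. Msln, the mesothelial surface protein mesothelin, was above background on all 8 arrays, at 5.00, 4.41, 5.36 and 5.03 in AngII cultures 1 to 4 and 4.84, 4.37, 5.39 and 4.99 in AngII+CsA cultures 1 to 4, highest in number 3 in both groups. The other mesothelial gene kept, the transcription factor gene Wt1, ran from -1.81 to -1.10, and Upk3b and Krt19 were above background on 0 arrays. Sox10, a transcription factor of Schwann cells, ran from -0.78 to 0.03 at one probe, with its other probe above background on 0 arrays. The beta globin gene Hbb-b1 ran from 0.16 to 1.20 at one of its probes, and the mast cell protease gene Mcpt4 from -2.63 to -0.82, while the red cell gene Alas2 and the mast cell genes Cpa3 and Kit were above background on 0 arrays. Col14a1, a collagen of the adventitia, had the same gap in detection as Emcn: neither array of number 3 was above background and the other 6 were, at least 2.57-fold higher.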
